A study of Mus musculus with 6 samples.

Results

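The genes described here are 46 genes of the mitotic spindle and of the checkpoint that watches over it, chosen by symbol from their known roles: the kinases and phosphatases that start mitosis, the kinetochore and checkpoint proteins, the anaphase-promoting complex, the kinesins, and the factors that switch these genes on. All 46 were found among the 54532 genes of the deposited table, and all 46 were among the 13393 genes that were tested. RNA came from bone marrow (BM) cells of C57BL/6 male mice 100 days after transplantation, in mice that model T-ALL, a leukemia of immature T cells. In both groups, lineage-negative donor cells had been infected with the retrovirus MSCV-JAK3M511I-IRES-GFP, which carries JAK3 with the activating change M511I and a green fluorescent marker. Donors and recipients were male mice of 8 weeks. Per the labels, 3 libraries came from Phf6 WT and 3 from Phf6 KO cells. They are numbered within each group as WT 1 to 3 and KO 1 to 3. The study removed Phf6, an X-linked chromatin gene, from a floxed allele with Vav1-Cre, which acts throughout the blood lineages, or with Mx1-Cre, which acts after induction. Its text on sequencing sets Phf6 KO with the Vav1-Cre allele against Phf6 WT, both with JAK3M511I, but the labels do not give the Cre line of each library. The genotype labels read Phf6, Phf7 and Phf8 in turn within each group and were read as Phf6. Whether GFP-positive cells were sorted before the RNA was taken is not stated, and neither is whether each library is a separate mouse, so p-values measure the spread between these samples.

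In mitosis, cyclin-dependent kinase 1 with its cyclins drives the cell to condense its chromosomes and to build a spindle of microtubules. Each chromosome is held by a kinetochore, and the spindle assembly checkpoint holds back the anaphase-promoting complex (APC/C) until every kinetochore is attached. The APC/C then marks cyclin B and securin for destruction, which frees separase to cut the cohesin that joins sister chromatids. In a leukemia many of these genes, though not all, are read mainly in the dividing cells. In a bulk sample, more dividing cells and more RNA of these genes per cell cannot be told apart.

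Many of these genes share 2 short promoter elements: the CHR (cell cycle genes homology region), read by the DREAM and B-Myb/FoxM1 complexes, and the CCAAT box, read by NF-Y. The promoters of 8 members are shown because they belong to the 4 members whose call held under every setting that tested them (Cenpf, Ect2, Espl1 and Kif11), to the central kinase and a B-type cyclin (Cdk1 and Ccnb2), to the only member that was lower in every KO library (Pttg1), and to an APC/C subunit (Cdc27). Each stretch runs from 120 bases before to 30 bases from the transcription start that RefSeq gives (build GRCm38.p6), and is written 5′ to 3′ on the strand of the gene. Capitals mark the CHR (TTTGAA or TTCGAA) and the CCAAT box on either strand, so that TTCAAA and ATTGG are the same elements read from the other strand.
Cenpf, chr1:189688057-189688206, minus strand: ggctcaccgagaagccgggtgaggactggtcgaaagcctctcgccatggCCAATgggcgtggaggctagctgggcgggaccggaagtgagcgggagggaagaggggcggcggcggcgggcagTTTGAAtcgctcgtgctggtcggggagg
Ect2, chr3:27153825-27153974, minus strand: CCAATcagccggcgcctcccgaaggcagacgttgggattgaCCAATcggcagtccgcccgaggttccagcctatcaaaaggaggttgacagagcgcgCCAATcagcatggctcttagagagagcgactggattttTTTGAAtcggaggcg
Espl1, chr15:102296173-102296322, plus strand: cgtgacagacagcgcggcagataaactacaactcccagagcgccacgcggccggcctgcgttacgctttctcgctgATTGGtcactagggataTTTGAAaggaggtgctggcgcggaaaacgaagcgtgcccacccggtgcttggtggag
Kif11, chr19:37376262-37376411, plus strand: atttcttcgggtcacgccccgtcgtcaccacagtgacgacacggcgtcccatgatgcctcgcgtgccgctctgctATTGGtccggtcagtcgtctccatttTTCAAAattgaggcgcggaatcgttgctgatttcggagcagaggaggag
Cdk1, chr10:69352883-69353032, minus strand: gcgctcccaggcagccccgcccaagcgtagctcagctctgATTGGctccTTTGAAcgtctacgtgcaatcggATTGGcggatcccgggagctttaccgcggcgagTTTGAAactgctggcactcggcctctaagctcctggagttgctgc
Ccnb2, chr9:70421525-70421674, minus strand: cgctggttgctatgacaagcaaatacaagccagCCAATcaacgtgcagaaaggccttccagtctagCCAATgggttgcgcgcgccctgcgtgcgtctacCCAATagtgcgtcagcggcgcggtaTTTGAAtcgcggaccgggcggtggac
Pttg1, chr11:43425952-43426101, minus strand: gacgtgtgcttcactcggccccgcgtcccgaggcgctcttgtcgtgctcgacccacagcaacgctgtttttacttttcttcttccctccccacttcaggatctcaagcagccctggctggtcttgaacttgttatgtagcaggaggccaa
Cdc27, chr11:104550591-104550740, minus strand: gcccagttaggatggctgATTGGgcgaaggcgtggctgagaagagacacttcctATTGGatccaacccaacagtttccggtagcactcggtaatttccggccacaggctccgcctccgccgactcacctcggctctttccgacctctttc

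The 6 promoters from Cenpf to Ccnb2 hold both elements, Cdc27 holds only the CCAAT box, and Pttg1 holds neither. The start shown for Pttg1 lies 270 bases from the gene end that the deposited table gives as its 5′ limit, so another start may be in use in these cells; for the other 7 the distance is 27 bases or less.

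Across the whole list, the RNA of most mitotic genes was higher in the KO-labelled libraries. A positive log2 fold change was found for 45 of 46 members, beside 53.6% of all tested genes. Of the 46, 24 (52.2%) were higher in KO at an adjusted p under 0.05 and 0 were lower, beside 13.1% of all tested genes called higher and 13.3% called lower (26.4% in all; limma on log2(FPKM + 1), Benjamini-Hochberg adjustment over 13393 genes). FPKM is the number of fragments scaled to gene length and library size, and log2 fold changes here are KO minus WT on the log2(FPKM + 1) scale. All KO libraries lay above all WT libraries in 38 members, beside 26.2% of all tested genes, and below them in 1 member, beside 22.9%. The remaining 7 members overlapped: Cdc25c, Aurka, Birc5, Cdca8, Cdc20, Cenpa and Kif2c. The median log2 fold change of the members was 1.45 (range -0.95 to 2.46), against 0.086 for all tested genes, and 38 members lay above 1 against 15.6% of all tested genes. Every member had an FPKM of at least 1 in the 3 KO libraries and so passed the filter on low values through that group alone. Of the members, 38 would also have passed it through the WT libraries. Cdc25c, Ttk, Cdc23, Espl1, Cenpf, Nuf2, Kif2c and Kif4 would not, and of these Ttk, Espl1 and Cenpf were called higher.

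**Figure D1:**
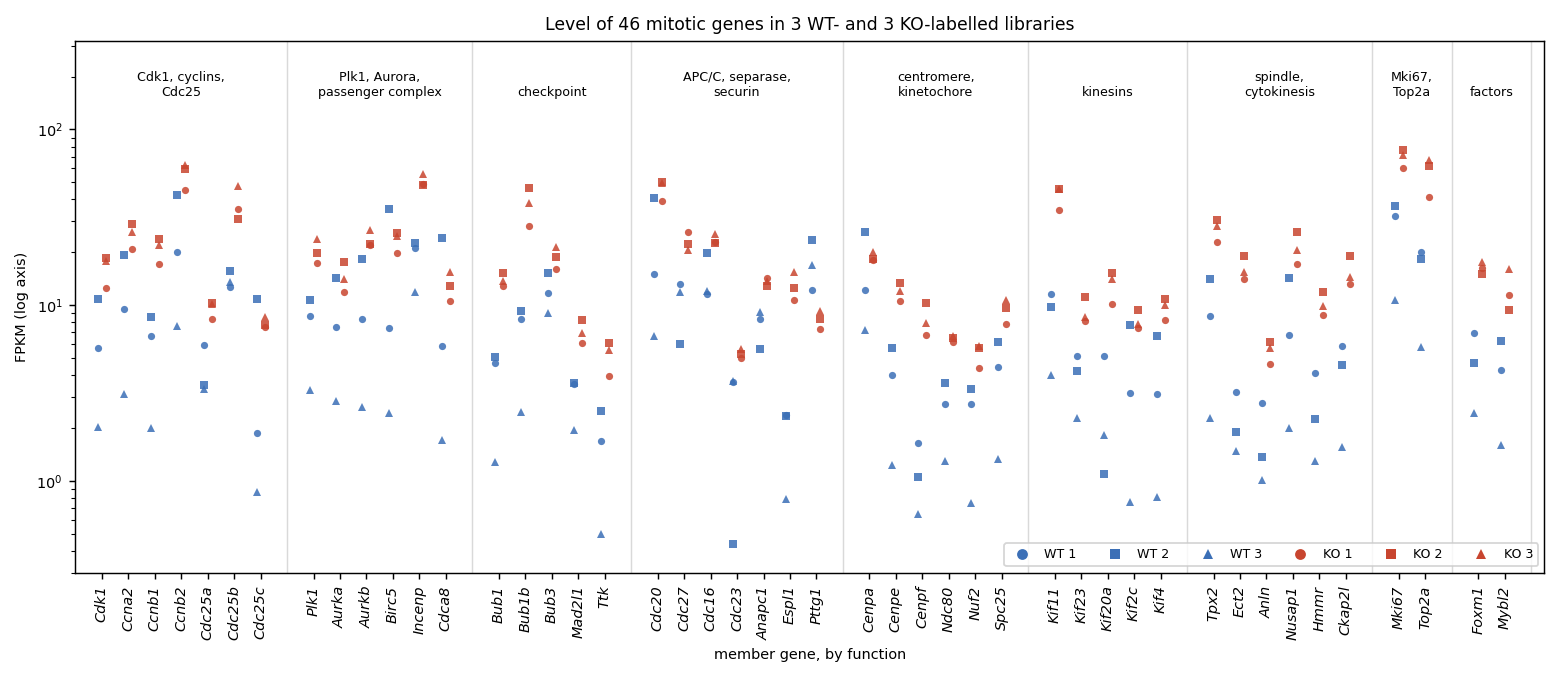
Level of the 46 members in each library (FPKM, log axis), with genes grouped by function along the horizontal axis and WT libraries in blue and KO libraries in red. The WT libraries are spread widely, with WT 3 the lowest of them in 39 members and WT 2 the highest in 31, while the KO libraries lie close together; Pttg1 is the gene whose KO points lie below all WT points.

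Several facts about the libraries bear on every value below. Summed over the members, FPKM was 369 in WT 1, 550 in WT 2 and 186 in WT 3, against 803, 989 and 999 across KO 1 to KO 3. As a share of the reads of a library, the members made up 0.201% in WT 1, 0.163% in WT 2 and 0.107% in WT 3. The share was 0.492%, 0.632% and 0.602% across KO 1 to KO 3. WT 2 was thus the highest WT library in summed FPKM but lay below WT 1 in read share. Phf6 itself did not separate the groups (WT mean 6.39 ± 2.37, KO mean 5.78 ± 0.849, SD, n = 3 each; log2 fold change -0.073, SE 0.325, limma adjusted p = 0.893), and gene-level values cannot show the loss of a few exons, so the KO label was not checked by it. WT 2 stood apart: over all tested genes its log2 values correlated with those of WT 1 and WT 3 at 0.779 and 0.746 (WT 1 with WT 3 at 0.948; across genes, which are not independent), and 17.1% of its reads fell in genes shorter than 1 kb against 3.11% to 5.01% in the other libraries. The 12 neutrophil markers were all lower in KO, with a summed FPKM of 33777, 95476 and 6851 in WT 1 to WT 3 against 93.7 to 290 in KO. Monocyte and macrophage markers (4 of 9 tested lower) summed to 333 to 4771 in WT and 19.0 to 30.9 in KO. Red cell markers (1 higher, 0 lower of 10 tested) summed to 163, 68195 and 568 in WT 1 to WT 3 and to 72.9 to 175 in KO. The 10 T cell markers (1 higher, 1 lower) summed to 885 to 1912 in WT and 921 to 1011 in KO. B cell markers (0 of 5 tested called) summed to 11.998 to 1338 in WT and 3.42 to 3.898 in KO, and megakaryocyte markers (0 of 3 tested called) to 7.15 to 62.0 and 1.28 to 1.93. NK cell markers (1 higher, 5 lower of 6 tested) summed to 152 to 264 in WT and 570 to 619 in KO, but the KO sum was nearly all Gzma (566 to 615), the gene that was higher, and the other 6 listed summed to 101 to 236 in WT and 3.34 to 4.42 in KO; of all these markers only Ppbp was at 0 in a whole group, the KO libraries. The part of these other cells in the mitotic gene differences was not tested.

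The count of members depended on single libraries. Without WT 2, 45 members were higher and 1, Pttg1, was lower, with a median log2 fold change of 1.75, while the share of all tested genes called higher also rose to 26.8%. Without WT 1 or without WT 3 the count was 16 (9.24% and 11.1% of all tested genes called higher), and without KO 1, KO 2 or KO 3 it was 8, 5 and 4, with 7.38%, 7.0% and 7.18% of all tested genes called higher. The sign of the log2 fold change was the same under all 18 alternatives for 40 members, and under 17 for Anln, Cdc23, Cenpf, Ndc80, Nuf2 and Ttk, which a filter on a mean FPKM of at least 5 left out.

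**Figure D2:**
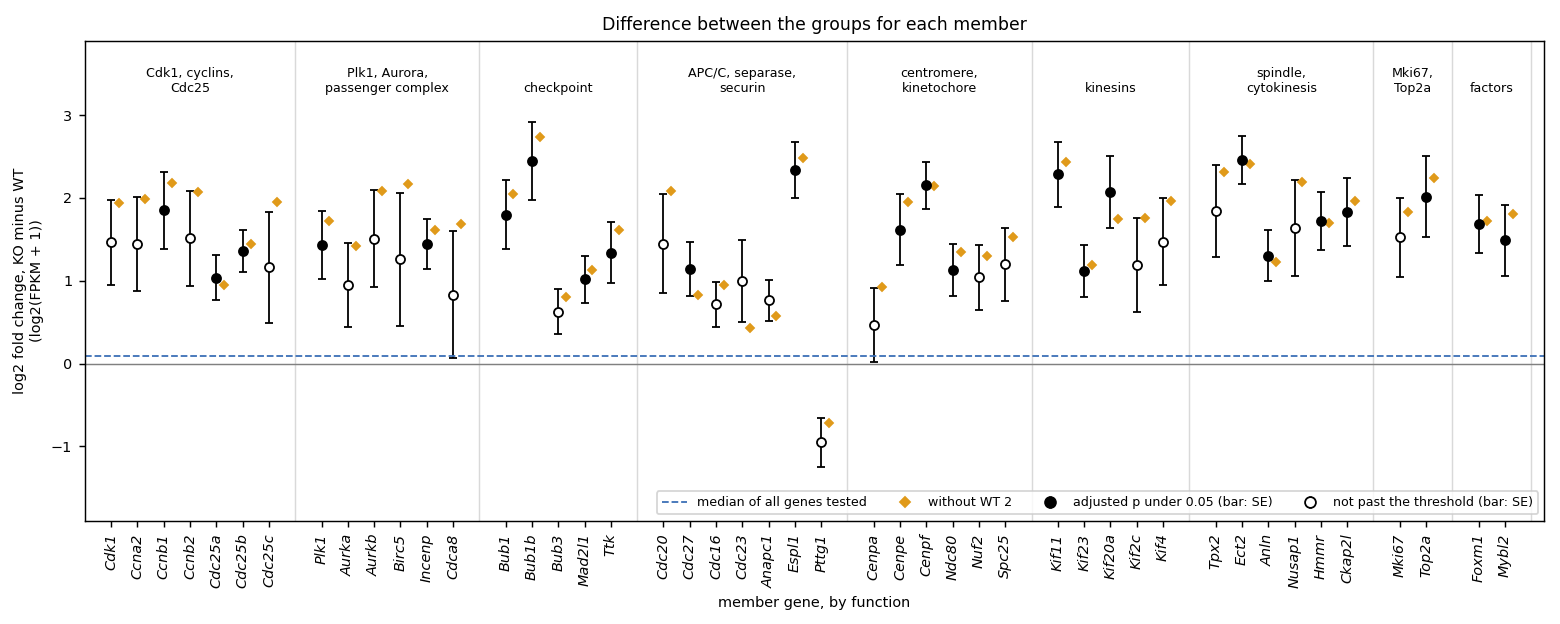
Log2 fold change of each member, KO minus WT on the log2(FPKM + 1) scale, with the standard error as a bar; filled circles passed an adjusted p of 0.05, open circles did not, orange diamonds give the value without WT 2, and the dashed line is the median of all tested genes at 0.086. All members but Pttg1 lie above 0, and Ect2, Bub1b, Espl1, Kif11 and Cenpf are the highest.

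Entry into mitosis is set by Cdk1, the central mitotic kinase, its cyclin partners, and the Cdc25 phosphatases that remove its inhibitory phosphates. Of these 7 genes, 3 were called higher in KO (Ccnb1, Cdc25a and Cdc25b) and 0 lower. Counts of this group and of those below stand beside 13.1% of all tested genes called higher and 13.3% called lower. All KO libraries lay above all WT libraries in 26.2% of all tested genes. The study measured genes of the Cdc family again, which its text does not name singly, so the direction of the Cdc members here is not independent evidence. Ccnb1, the main mitotic cyclin, had an FPKM of 6.67, 8.61 and 2.004 in WT 1 to WT 3 and 17.1, 23.9 and 22.1 in KO 1 to KO 3 (log2 fold change 1.85, SE 0.463, limma adjusted p = 0.0282). The groups did not overlap, and WT 3 was the lowest library. Cdc25b, which acts at the start of mitosis, was even among the WT libraries, at 12.8, 15.6 and 13.5, against 35.4, 30.8 and 47.5 in KO (log2 fold change 1.36, SE 0.253, limma adjusted p = 0.00973). Cdc25a, which also acts on entry into S phase, stood at 5.91, 3.51 and 3.35 in WT and 8.32, 10.4 and 10.1 in KO (log2 fold change 1.04, SE 0.276, limma adjusted p = 0.0349). In WT, Cdc25a and Cdc25b varied by less than the cyclins did.

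Cdk1 itself did not pass the test in all 6 libraries. Its FPKM was 5.67, 10.9 and 2.01 in WT and 12.5, 18.7 and 17.9 in KO, with a log2 fold change of 1.46 (SE 0.512, limma adjusted p = 0.0825). The groups did not overlap, but the WT libraries spanned more than the gap between the groups. Ccna2, the S and G2 phase cyclin, and Ccnb2, the second mitotic cyclin, had the same form: log2 fold changes of 1.45 and 1.51 with adjusted p-values of 0.116 and 0.107 (limma), and no overlap between groups. Ccna2 shares 12.5% of its exon length with Exosc9 on the other strand. Cdc25c, the third phosphatase, overlapped because of WT 2, which stood at an FPKM of 10.9 beside 1.87 in WT 1, 0.864 in WT 3 and 7.50 to 8.54 in KO (log2 fold change 1.16, limma adjusted p = 0.258).

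The Polo and Aurora kinases act from centrosome maturation to cytokinesis, and Aurkb works within the chromosomal passenger complex together with Incenp, Birc5 (survivin) and Cdca8 (borealin). Among these 6 genes, 2 were called higher in KO and 0 lower. Plk1 stood at 8.69, 10.6 and 3.29 in WT and 17.4, 19.8 and 23.9 in KO (log2 fold change 1.43, SE 0.413, limma adjusted p = 0.0458). Incenp, the scaffold of the passenger complex, was at 21.3, 22.7 and 11.95 in WT and 48.8, 48.4 and 55.5 in KO (log2 fold change 1.45, SE 0.302, limma adjusted p = 0.0149). In both genes every KO library lay above every WT library.

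The other partners of the passenger complex did not pass, and WT 2 was far above the other WT libraries in each. Birc5 had an FPKM of 35.1 in WT 2 against 7.47 in WT 1 and 2.45 in WT 3, and 19.9 to 25.7 in KO (log2 fold change 1.26, SE 0.803, limma adjusted p = 0.306). Cdca8 had 24.1 in WT 2 against 5.83 and 1.72, and 10.6 to 15.5 in KO (log2 fold change 0.83, limma adjusted p = 0.478). Aurkb, the kinase of the complex, was at 8.31, 18.3 and 2.65 in WT and 22.0 to 26.9 in KO without overlap (log2 fold change 1.51, limma adjusted p = 0.111). Aurka, the Aurora kinase of the spindle poles, overlapped, at 2.85 to 14.2 in WT and 11.96 to 17.5 in KO (log2 fold change 0.95, limma adjusted p = 0.225). Within a library, the ratio of Birc5 to Incenp was 0.407 to 0.531 in KO and 0.351, 1.54 and 0.205 in WT 1 to WT 3, with a narrow range in KO and WT 2 far above the other WT libraries.

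The spindle assembly checkpoint delays anaphase while any kinetochore is unattached, and 4 of its 5 genes were higher in KO and 0 lower. Bub1b (BubR1), which binds and holds back the APC/C, stood at 8.30, 9.29 and 2.46 in WT and 28.1, 46.5 and 37.95 in KO, a ratio of means of 5.61 (log2 fold change 2.45, SE 0.47, limma adjusted p = 0.0109). Bub1, the kinase that recruits it to kinetochores, stood at 4.70, 5.04 and 1.29 in WT and 12.8, 15.2 and 13.8 in KO (log2 fold change 1.80, SE 0.414, limma adjusted p = 0.0211). Both genes had WT 3 as the lowest library and no overlap between groups. Ttk (Mps1), the kinase that starts checkpoint signalling, was at 1.69, 2.49 and 0.498 in WT and 3.94 to 6.08 in KO (log2 fold change 1.34, limma adjusted p = 0.0385). Mad2l1, which binds the APC/C activator Cdc20, was at 3.57, 3.63 and 1.96 in WT and 6.07 to 8.18 in KO (log2 fold change 1.02, limma adjusted p = 0.0393). Bub3, the partner of both Bub kinases, had the smallest difference of the 5, with means of 11.99 ± 3.15 in WT and 18.8 ± 2.77 in KO (SD, n = 3 each; log2 fold change 0.63, limma adjusted p = 0.146).

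The APC/C, its activator and its downstream pair gave the most varied group, with 2 of 7 genes higher in KO, 0 lower, and log2 fold changes from -0.95 to 2.34. Espl1 (separase; chromosome 15), the protease that cuts cohesin, stood at 2.38, 2.33 and 0.789 in WT and 10.8, 12.5 and 15.4 in KO. The KO mean was 7.03 times the WT mean (log2 fold change 2.34, SE 0.334, limma adjusted p = 0.00375), and this call was kept under every alternative. At 0.789 in WT 3, Espl1 would not have passed the filter on low values through the WT libraries. Pttg1 (securin; chromosome 11), which binds separase and keeps it inactive until anaphase, stood at 12.1, 23.6 and 16.9 in WT and 7.27, 8.35 and 9.32 in KO. It was the only member with a negative log2 fold change, -0.95 (SE 0.295, limma adjusted p = 0.0575), which did not pass the threshold with all 6 libraries and did without WT 2 (log2 fold change -0.72, adjusted p = 0.0212). Over all alternatives the log2 fold change of Pttg1 ran from -1.18 to -0.187, and its limma adjusted p from 0.0118 to 0.723.

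Securin and separase therefore lay in opposite order in the 2 groups. The ratio of Pttg1 to Espl1 FPKM within a library, which no scaling of the library can change, was 5.11, 10.1 and 21.4 in WT 1 to WT 3 and 0.675, 0.670 and 0.604 in KO 1 to KO 3. A difference between libraries that depends on gene length, as in WT 2, can change such a ratio. Pttg1 has 2000 bases and Espl1 8749, and the part of length was not tested. The ratio of Pttg1 to Mki67, the general marker of cycling cells, was 0.378, 0.645 and 1.58 in WT and 0.121, 0.109 and 0.130 in KO. Among the 46 members Pttg1 ranked 9, 7 and 1 from the highest across WT 1 to WT 3 and 39, 39 and 36 across KO 1 to KO 3. These ratios were picked after the values were seen, among 10 ratios computed. The exact two-sided permutation test gave p = 0.1 for each of these 2 ratios, the smallest value that 3 against 3 libraries allow, and 0.25 after Benjamini-Hochberg adjustment over the 10.

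**Figure D3:**
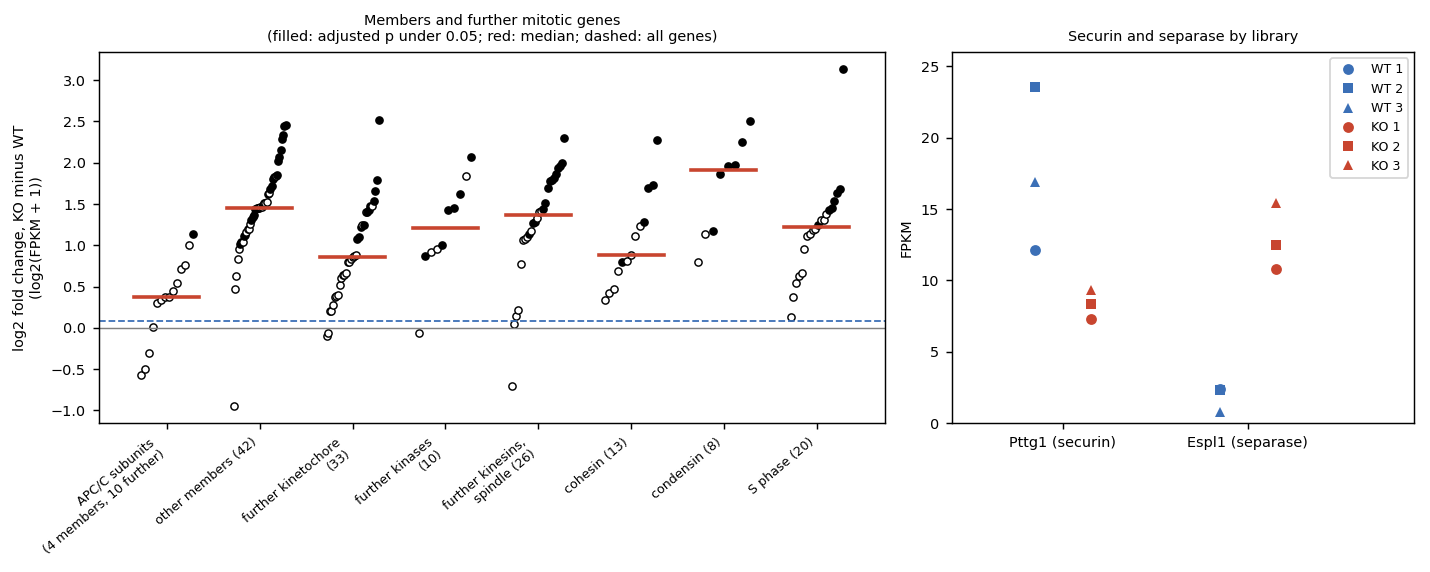
Left, log2 fold changes (KO minus WT, log2(FPKM + 1)) of APC/C subunits, the other members and further mitotic lists, with filled points past the threshold, red bars for medians and the dashed line for the median of all tested genes; the APC/C subunits lie lowest and condensin highest. Right, FPKM of Pttg1 and Espl1 in each library; Pttg1 runs from 12.1 to 23.6 in WT and 7.27 to 9.32 in KO, Espl1 from 0.789 to 2.38 and 10.8 to 15.4.

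The 4 subunits of the APC/C itself had log2 fold changes below the median of the members. Cdc27, a subunit that docks the activators, was at 13.2, 5.99 and 11.8 in WT and 26, 22.4 and 20.7 in KO (log2 fold change 1.14, SE 0.329, limma adjusted p = 0.0458), with WT 2 as its lowest library. Cdc16, Anapc1 and Cdc23, further subunits of the same scaffold, did not pass (log2 fold changes 0.71, 0.76 and 1.00; limma adjusted p = 0.109, 0.0693 and 0.193), although the groups did not overlap in any of them. For Cdc23 the FPKM was 3.66, 0.439 and 3.72 in WT and 5.001 to 5.66 in KO, so WT 2 alone lay far from the rest, and without it the log2 fold change was 0.43 (adjusted p = 0.0459). Its exons overlap those of Kif20a on the other strand over 1271 bases, 13.4% of the exon length of Cdc23 and 29.3% of that of Kif20a; the use of strand is not stated, so reads there cannot be assigned to either. Cdc20, the activator that the checkpoint holds, stood at 15.1, 41.0 and 6.67 in WT and 39.3 to 50.5 in KO (log2 fold change 1.45, limma adjusted p = 0.131), and WT 2 lay within the KO range. The median log2 fold change was 0.88 over the 4 member subunits and 0.32 over 10 further APC/C subunits, of which 0 were called, against 1.46 over the other 42 members, of which 23 were called higher; the split was made after the values were seen and the difference was not tested.

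Of the 6 centromere and kinetochore genes, 3 were higher in KO and 0 lower. Cenpf, a large kinetochore protein made in G2 phase, stood at 1.65, 1.05 and 0.652 in WT and 6.81, 10.3 and 7.92 in KO, and its KO mean was 7.47 times the WT mean (log2 fold change 2.15, SE 0.283, limma adjusted p = 0.00277). The call held under the 17 alternatives that tested Cenpf. At 0.652 in WT 3, Cenpf would not have passed the filter on low values through the WT libraries. Cenpe, the kinetochore kinesin that moves chromosomes to the spindle equator, stood at 3.99, 5.72 and 1.23 in WT and 10.6, 13.4 and 11.97 in KO (log2 fold change 1.62, limma adjusted p = 0.0352). Ndc80, which grips the microtubule, was at 2.73, 3.62 and 1.30 in WT and 6.20 to 6.69 in KO (log2 fold change 1.13, limma adjusted p = 0.0399). Nuf2 and Spc25, its partners in the same complex, had log2 fold changes close to that, 1.04 and 1.20, and did not pass (limma adjusted p = 0.0997 and 0.0989). Cenpa, the histone H3 variant that marks the centromere, overlapped, at 12.2, 26.2 and 7.23 in WT and 18.02 to 20.1 in KO (log2 fold change 0.46, limma adjusted p = 0.494). The ratio of Cenpa to Cenpf was 7.43, 24.9 and 11.1 in WT and 2.65, 1.79 and 2.54 in KO (exact permutation p = 0.1, adjusted 0.25). It was among the 10 ratios computed and was picked after the values were seen. That test cannot give a p below 0.1 with 3 against 3 libraries, so it cannot decide whether the ratio differs. Cenpa and Cenpf also differ in length (5860 and 15433 bases), and the part of length was not tested.

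Of the 5 kinesins, motor proteins of the spindle, 3 were higher in KO and 0 lower. Kif11 (Eg5), which pushes the spindle poles apart, stood at 11.6, 9.73 and 4.02 in WT and 35.02, 45.7 and 45.8 in KO (log2 fold change 2.29, SE 0.391, limma adjusted p = 0.00718), and the call held under every alternative. Kif20a, which carries the passenger complex to the midzone, was at 5.14, 1.10 and 1.84 in WT and 10.1, 15.2 and 14.1 in KO (log2 fold change 2.07, limma adjusted p = 0.0154), with the reservation on exons shared with Cdc23. Kif23, a motor of the midzone needed for cytokinesis, stood at 5.12, 4.20 and 2.28 in WT and 8.15 to 11.1 in KO (log2 fold change 1.12, limma adjusted p = 0.0414). Kif4, which shortens the microtubules of the midzone, and Kif2c, which depolymerizes microtubules at the centromere, did not pass (log2 fold changes 1.47 and 1.19, limma adjusted p = 0.0884 and 0.18). In Kif2c WT 2 reached 7.70, inside the KO range of 7.38 to 9.35, while WT 3 was at 0.754. Kif4 shares 15.1% of its exon length with Pdzd11 on the other strand.

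In spindle assembly and cytokinesis genes, all KO libraries lay above all WT libraries in all 6 members, beside 26.2% of all tested genes. Of the 6, 4 were called higher and 0 lower, beside 13.1% and 13.3% of all tested genes. Ect2, the exchange factor that starts the contractile ring, had the largest log2 fold change and the smallest adjusted p of all members: FPKM 3.22, 1.895 and 1.47 in WT and 14.1, 19.1 and 15.5 in KO (log2 fold change 2.46, SE 0.29, limma adjusted p = 0.00192). Anln (anillin), which organizes the same ring, was at 2.77, 1.36 and 1.02 in WT and 4.61 to 6.14 in KO (log2 fold change 1.30, limma adjusted p = 0.0222). Ckap2l, a spindle protein, was at 5.87, 4.56 and 1.56 in WT and 13.2 to 19.0 in KO (log2 fold change 1.83, limma adjusted p = 0.0197). Hmmr, which anchors spindle microtubules, was at 4.13, 2.26 and 1.29 in WT and 8.78 to 11.9 in KO (log2 fold change 1.72, limma adjusted p = 0.0133). Tpx2, which activates Aurka on the spindle, and Nusap1, which bundles microtubules near chromosomes, had log2 fold changes of 1.84 and 1.64 without passing (limma adjusted p = 0.0532 and 0.0875); in both, WT 2 was the highest WT library, at 14.1 and 14.2.

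Mki67 (Ki-67), which coats mitotic chromosomes and marks cycling cells, and Top2a, the topoisomerase that untangles sister chromatids, were the members with the highest KO levels. Mki67 stood at 32.1, 36.5 and 10.7 in WT and 60.04, 76.9 and 71.9 in KO (log2 fold change 1.53, SE 0.475, limma adjusted p = 0.0583). Top2a stood at 20.03, 18.3 and 5.78 in WT and 41.5, 62.2 and 67.0 in KO (log2 fold change 2.02, SE 0.488, limma adjusted p = 0.0251). The groups did not overlap in either gene, and WT 3 was lowest in both.

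Both transcription factors of the list were called higher in KO. Foxm1, the forkhead factor that drives G2 and mitotic genes, stood at 6.98, 4.67 and 2.43 in WT and 16.4, 15.01 and 17.6 in KO (log2 fold change 1.69, SE 0.348, limma adjusted p = 0.0143). Mybl2 (B-Myb), its partner at CHR promoters, stood at 4.29, 6.28 and 1.60 in WT and 11.4, 9.43 and 16.1 in KO (log2 fold change 1.49, SE 0.433, limma adjusted p = 0.0474). Neither gene overlapped between groups.

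The WT libraries differed from each other in an ordered way across the members. WT 1 was above WT 3 in 41 of 46 members, with a median log2 difference of 1.13 against 0.0012 over all tested genes, so WT 3 was low in the mitotic genes and not in its genes at large. On the scale of the deposited FPKM, though not in read share, WT 2 stood high. It was above the mean of WT 1 and WT 3 by a median of 0.75 over the members and lay below it by 0.12 over all tested genes. Its excess was larger in the 23 shorter members (median 1.00) than in the 23 longer members (median 0.44). Over the 46 members the correlation of this excess with gene length was -0.497 (Pearson) and -0.515 (Spearman), against -0.24 and -0.237 over all tested genes; these are descriptions across genes that share the same 3 libraries. The members in which WT 2 reached or passed the KO range, such as Birc5, Cdca8, Cdc25c and Cdc20, are among those most raised in WT 2. What set WT 2 apart was not tested.

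**Figure D4:**
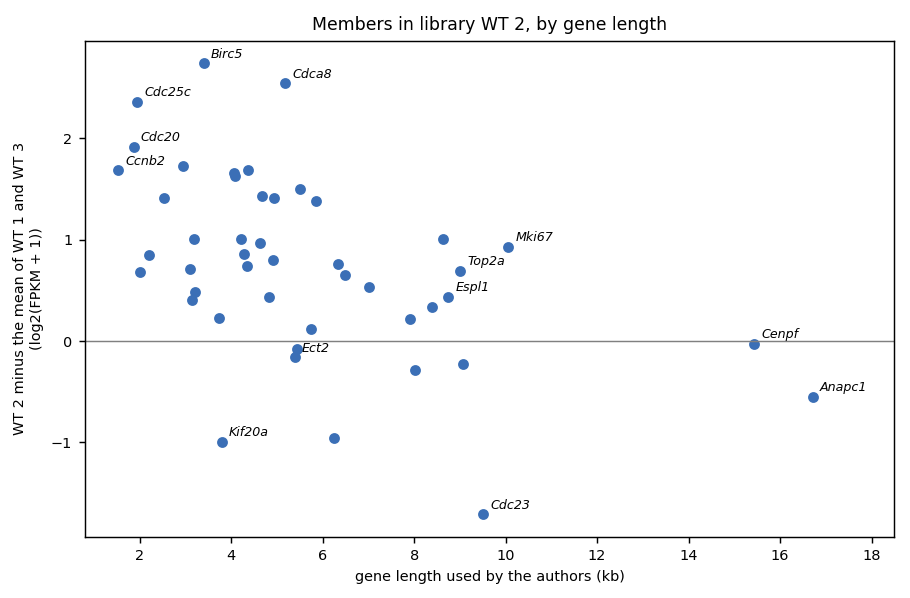
Difference of WT 2 from the mean of WT 1 and WT 3 (log2(FPKM + 1), vertical axis) against the gene length used by the authors (kb, horizontal axis), with 1 point for each of the 46 members. Birc5, Cdca8 and Cdc25c lie highest, and of these Birc5 and Cdc25c are short, while Cdca8, at 5177 bases, is among the 23 longer members. Cdc23 and Anapc1 lie below 0, while Kif20a is short and also low.

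Further genes of the same machinery, from lists chosen by function, were tested in the same model, and again none was called lower. Of 104 further mitotic genes, 42 were called higher in KO and 0 lower, beside 13.1% and 13.3% of all tested genes. The log2 fold change was above 0 in 97 of them. All KO libraries lay above all WT libraries in 67 and below them in 1, beside 26.2% and 22.9% of all tested genes. Each of the 104 had an FPKM of at least 1 in the 3 KO libraries and so passed the filter through that group; 75 would also have passed it through the WT libraries, while others, such as Mastl at 0.931, 0.560 and 0.547 in WT, would not. Condensin, which compacts mitotic chromosomes, had 6 of 8 genes higher and the highest median log2 fold change, 1.91, led by Ncapg (2.51, limma adjusted p = 0.00156), Ncapg2 (2.25, 0.00293) and Ncapd2 (1.97, 0.0121). Further kinesins and spindle genes had 14 of 26 higher (median 1.36), with Depdc1a (2.30), Troap (1.99) and Ckap2 (1.93) at the smallest p-values. Further kinases and their regulators had 6 of 10 higher (median 1.22), among them Nek2 (2.07), the centrosome kinase, Wee1 (1.45), which puts the inhibitory phosphate on Cdk1, and Mastl (1.42), which restrains the phosphatase that opposes Cdk1.

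In the further kinetochore and checkpoint list 11 of 33 genes were higher (median 0.86), with Knl1 (2.52), the platform on which Bub1 and Bub1b assemble, and Kntc1 (1.66), which helps bring checkpoint proteins to the kinetochore. The cohesin list had 5 of 13 higher (median 0.88), with Sgo1 (2.28), the guardian of centromeric cohesin, Rad21 (1.73), the subunit that separase cuts, and Esco2 (1.697), which acetylates cohesin. The 14 further APC/C subunits and regulators had 0 called in either direction by limma and a median log2 fold change of 0.33. In a list of replication licensing and S phase genes, 7 of 20 were higher (median 1.22), led by Uhrf1, with an FPKM of 14.4, 15.3 and 6.10 in WT and 86.5, 99.0 and 138 in KO (log2 fold change 3.14, limma adjusted p = 0.00243), Orc1 (1.63) and Mcm2 (1.25). Each of the 20 had an FPKM of at least 1 in the 3 KO libraries and so passed the filter through that group. Of these, 18 would also have passed it through the WT libraries, but Orc1, at 1.25, 0.758 and 0.705 in WT, would not. All these lists were read from the same libraries, WT 2 included.

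The promoter elements shown above were then counted in all members. RefSeq windows of 300 bases (250 before to 50 after the start) were matched for 38 of 46 members, in 40 windows; Aurkb, Ccna2, Cdc23, Cdc25c, Foxm1, Incenp, Kif20a and Tpx2 had none. The CHR (TTTGAA or TTCGAA, either strand) was in 26 of the 38 members (68.4%), against 21.7% of 27025 genes with a window and 16.7% of the 8667 tested genes with a window. The CCAAT box (CCAAT, either strand) was in 27 (71.1%) against 41.1% and 43.2%, and both elements were in 23 (60.5%) against 8.61% and 7.05%. At least 2 CCAAT boxes were in 20 members (52.6%) against 13.3% and 17.0%. Neither element contains the other, and a match is a run of letters, not a shown binding site. The distance from the deposited gene limit was taken only for the 8 printed promoters, and some other windows lie far from it. On the minus strand of chromosome 4, the windows of Kif2c and Cdca8, counted here as holding a CHR, end at 117179022 and 124937167. The deposited genes reach 117182639 and 124939311.

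The position of the matches was narrower than their presence. A CHR starting within 60 bases before the transcription start or after it was found in 24 members (63.2%), against 6.79% of all genes with a window and 5.09% of tested genes with a window. Positions were then listed for a single window of each member. The first bases of the 36 CHR matches in these had a median of 2 (counted from 0 at the first transcribed base), and those of the 61 CCAAT matches a median of -66. By these medians the CCAAT boxes lay before the CHR, as in the stretch of Espl1 printed above. The order within each promoter was not counted. In the full window of Ccnb2, a CHR starts at -167, before the CCAAT boxes at -87, -54 and -21, and another at 4, after them. Members with a CHR had a median log2 fold change of 1.46 (n = 26, 15 called higher), and those without, 1.09 (n = 12, 6 called higher); the 8 without a window had 1.48. The 8 members with neither element (Anapc1, Birc5, Cdc16, Mad2l1, Mybl2, Nuf2, Nusap1 and Pttg1) had a median of 1.03, with 2 called higher. These splits were made after the values were seen, and no difference between them was tested.

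**Figure D5:**
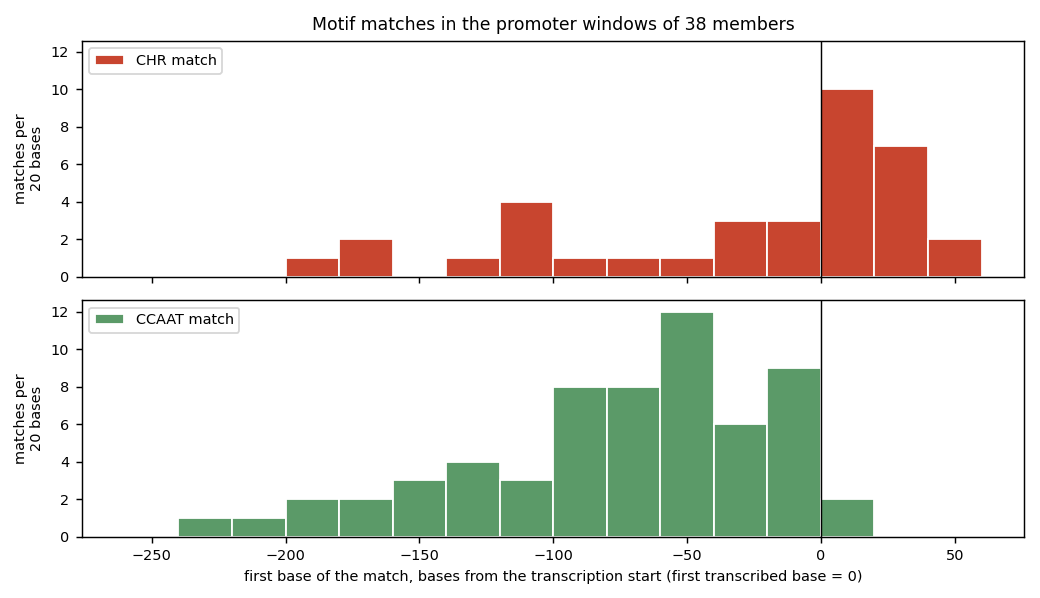
Number of CHR matches (upper panel) and CCAAT matches (lower panel) per 20 bases, in a single window for each of 38 members. The horizontal axis is the distance of the first base of the match from the transcription start (bases, first transcribed base = 0). CHR matches are most frequent just after the start (median 2) and CCAAT matches before it (median -66).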

How the data were processed

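RNA of bone marrow cells was sequenced in 6 libraries. The authors deposited 1 table of FPKM for 54532 genes, with gene lengths and coordinates. The submitters' processing notes name HISAT2 2.0.5, featureCounts 1.5.0-p3 and the builds GRCm38 and mm10; the use of strand is not given in the sources used here. FPKM times gene length was a whole multiple of a fixed step (within 0.05 reads) in 100% of values, which gave 13015823 to 18235095 reads per library. The library size implied by the FPKM was 0.645 (WT 2) to 1.21 times this total, so a further scaling is part of the deposited values. The member with the fewest reads had 26 (Cdc25c in WT 3), above a floor of 3 reads, which covers counting error only.

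The 13393 genes that reached an FPKM of 1 in 3 or more of the 6 libraries were tested on log2(FPKM + 1), which understates changes of low genes, with limma 3.58.1 (lmFit, eBayes with trend, two-sided) in R 4.3.3 and Benjamini-Hochberg adjustment (threshold 0.05). The study tested counts with another model; FPKM are not counts, so limma on the log scale was chosen instead. The fit was tested on simulated data in which each gene had the same spread in all 6 libraries. No library stood apart there as WT 2 does here, so the simulation cannot show how the fit behaves with such a library. Members and lists were chosen with earlier results of these data known. Named genes are the 46 members, Phf6 and, of each further list, up to 3 genes with the smallest p-values in each direction, of which 1 is not reported here; markers are given as sums (Gzma and Ppbp were named after their values were seen), and genes sharing exons with a member are named for that reason only. Promoters came from RefSeq (GRCm38.p6), exon overlaps from GENCODE (43 of 46 members had identical coordinates). Of the 40 member windows, 24 held their first 30 transcribed bases in an annotated transcript on the gene's strand and 0 on the other. Alternatives were other pseudocounts, filters, scalings, array weights, a length trend, voom on recovered reads, a replicate block and leaving out each library. Python 3.11.15, pandas 2.3.3, NumPy 2.4.6 and Matplotlib 3.10.9 were used.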

Additional observations from a re-analysis of the deposited data

How the results depend on the processing

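All 46 members kept their sign, and Cenpf, Ect2, Espl1 and Kif11 their call, under each of the 18 alternatives that tested them; 6 members (Anln, Cdc23, Cenpf, Ndc80, Nuf2 and Ttk) were tested in 17, since a mean FPKM of at least 5 left them out. The number of members higher in KO was 24 with the settings reported, 14 with no filter on low values, 41 after rescaling to TPM, 45 with array weights and 36 by voom on the recovered reads, and lay between 4 and 45 when 1 library was left out: it was 16, 45 and 16 with WT 1, WT 2 or WT 3 removed, and 8, 5 and 4 with KO 1, KO 2 or KO 3 removed. Beside these, 13.1% of all tested genes were called higher with the settings reported and 6.44% with no filter. The share was 17.0% with TPM, 32.8% with array weights and 14.9% with voom, and 7.0% to 26.8% with a library left out. The number of members lower was 0, and 1 with the length trend removed or with array weights, and 0 to 1 with a library left out. The median log2 fold change of the members was 2.36 after rescaling to TPM, which moved the median of all tested genes to 0.86, and voom moved it to 0.56; relative to those medians the members stood at 1.499 and 1.44, against 1.36. Of all calls, 49.6% were higher in the reported fit, 67.8% with TPM and 60% with voom. Over all tested genes, higher and lower calls (1754 and 1785) became 786 and 1051 with a mean FPKM of at least 5, 4388 and 4073 with array weights, and 938 to 3584 and 996 to 3383 with a library left out; TPM gave 1081 lower, and voom 1991 and 1327. The 42 further mitotic genes called higher became 26 with a mean FPKM of at least 5, 66 with TPM, 82 with array weights and 14 to 80 with a library left out, and those lower became 1 with quantile normalization, the length trend removed or array weights, and 0 to 1 with a library left out. Same-numbered libraries of the groups did not deviate together (correlations 0.0954, 0.105 and -0.153), and by these correlations not every library was closest to its own number. With so few libraries per group and WT 2 far from the others, this cannot decide whether the numbers mark a pairing. With the replicate number as a block, 13 members and 27 further mitotic genes were higher, beside 9.01% of all tested genes. The causes of these shifts were not tested, other than fewer genes or libraries where the setting removes them.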
